A study of Homo sapiens with 6 samples.

Results

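The genes described are the central kinases and adaptors of the Hippo pathway and its angiomotin-like scaffolds, taken as a list of 10 symbols by their role in the pathway, with earlier results of these data known: STK3, STK4, SAV1, LATS1, LATS2, MOB1A, MOB1B, NF2, AMOTL1 and AMOTL2. Of these, 9 have a row among the 17211 genes of the table, and AMOTL1 is not analysed here. All 9 were among the 17204 genes tested. The samples are RNA libraries of CAOV2, a human ovarian cancer line that the labels also call primary ovarian cancer cells. Both groups carried the same transfection: 100000 cells in a well received 100 pmol of siRNA with 6 µL of a lipid reagent for 2 days and were collected on day 3. In 3 libraries the siRNA was directed at TAZ (siTAZ), and in 3 it was a non-targeting control (siNT). The labels name a single siRNA product for each arm, from different suppliers, and no untransfected cells are among the samples. Replicate numbers are those of the sample titles, and the column names of the deposited table carry other numbers (replicates 1, 2 and 3 are siNT columns 2, 3 and 4 and siTAZ columns 5, 6 and 8). The labels call the samples biological replicates without saying whether these came from separate days or thaws, and the p-values therefore reflect only how much these libraries vary, which may be in part technical.

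In the Hippo pathway the MST kinases, encoded by STK3 (MST2) and STK4 (MST1), act with the scaffold SAV1 to activate the LATS kinases, which work with the MOB1 adaptors. Active LATS kinases phosphorylate the coactivators YAP and TAZ, which keeps them out of the nucleus and marks them for degradation. NF2 (merlin) recruits LATS kinases to the membrane, and angiomotin proteins bind YAP and TAZ and hold them in the cytoplasm or at junctions. LATS2 and AMOTL2 are also known as target genes of YAP and TAZ with TEAD factors, so that they can act as negative feedback on the coactivators. The comparison asks whether transcripts of this inhibitory arm move when TAZ is silenced.

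Libraries held 25478595 to 34488196 reads in genes. The targeted transcript, WWTR1, which encodes TAZ, stood at 4278 ± 73.2 (SD, n = 3) in siNT and 266 ± 21.0 (SD, n = 3) in siTAZ, 16.1-fold lower. YAP1 stood at 5992 ± 213 in siNT and 4875 ± 185 in siTAZ (SD, n = 3 each), 18.7% lower, and was called lower (limma adjusted p = 4.7e-05). All 9 epithelial markers on a fixed list had a row, and their summed level was 103753 to 112735 in siNT and 96166 to 104665 in siTAZ, with KRT8 the most abundant. Of 8 ovarian carcinoma markers, WT1, ESR1, SOX17 and EMX2 had no row, and the other 4 summed to 35.6 to 66.3 in siNT and 44.4 to 56.1 in siTAZ, led by PAX8 at a mean of 28.8 in siNT. Of 8 fibroblast markers 6 had a row, led by LUM, and the list summed to 5609 to 6399 in siNT and 6614 to 7502 in siTAZ. None of 6 endothelial markers had a row. Of 7 leukocyte markers 3 had a row, led by CD14, and they summed to 137 to 145 in siNT and 268 to 318 in siTAZ, while PTPRC, CD3E and MS4A1 were among those with no row. The part of these markers in the results below was not tested. In bulk libraries, fewer cells of a type and less RNA per cell cannot be told apart.

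After TAZ silencing, AMOTL2 fell 1.73-fold, and the other 8 genes differed between the groups by 15.3% or less of their siNT mean. STK4, MOB1A and NF2 fell by small amounts, LATS2 rose by a small amount, and STK3, SAV1, LATS1 and MOB1B did not pass the test. Thus 4 of 9 genes were called lower and 1 higher by limma at an adjusted p under 0.05, which is 55.6% of the 9. Of the whole table tested, 55.8% passed (28.3% as higher and 27.5% as lower), and among the 8476 genes with a mean value of at least 500, which all 9 exceed, 67.5% were called. The count of called genes is therefore near the background and is no result about this set. The groups' libraries did not overlap for 6 of the 9 genes, beside 61.4% of all genes tested. The median log2 fold change of the 9 was -0.12, beside -0.0013 for all genes tested. The median size of change, taken without sign, was 0.15 for the 9 genes, beside 0.31 for all genes tested and 0.23 for genes with a mean of at least 500.

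**Figure D1:**
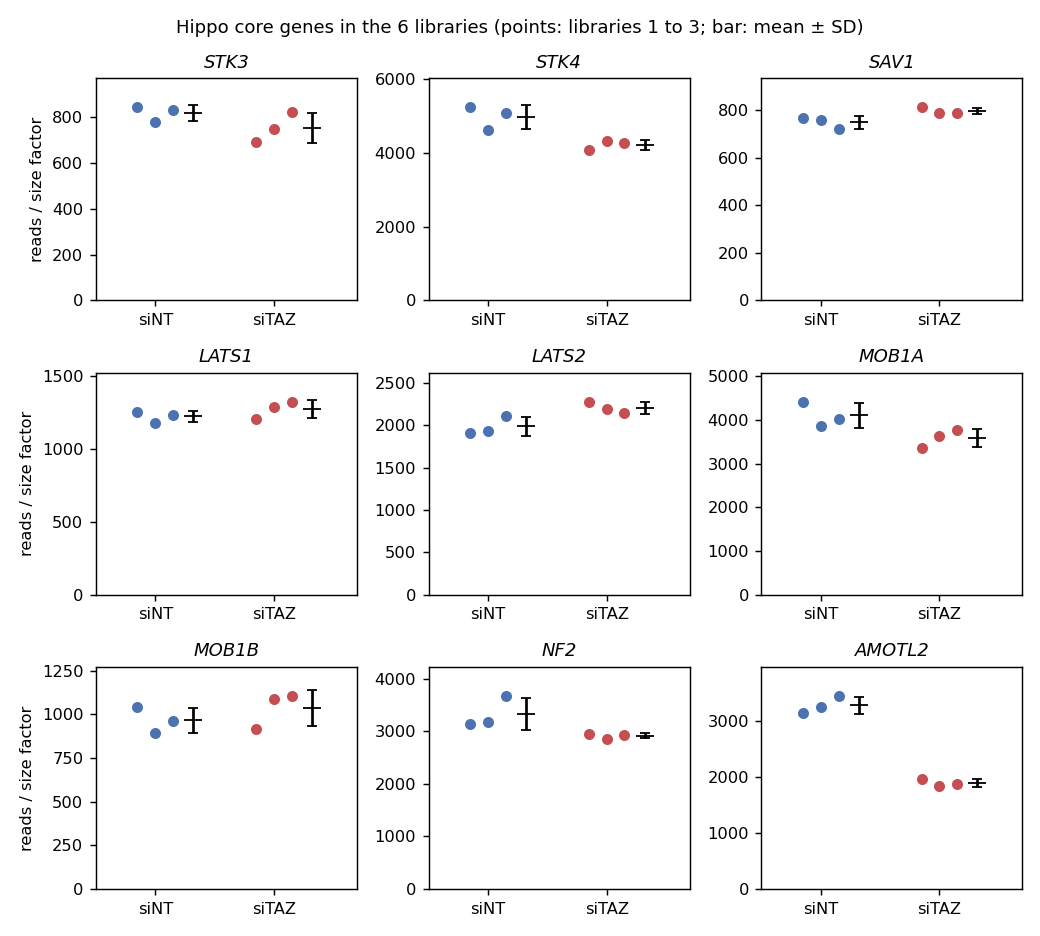
Deposited values (size-factor-scaled reads, vertical axis from 0) of each gene in the 3 siNT and 3 siTAZ libraries, with the mean ± SD of each group as a bar. AMOTL2 is the gene with the widest gap, with siNT libraries at 3141 to 3454 and siTAZ libraries at 1833 to 1973, while the points of STK3, LATS1 and MOB1B overlap between groups.

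Values given for a gene are those deposited, in reads scaled by a size factor of the library, and log2 fold changes are siTAZ over siNT of log2(value + 1). Within a group, the 9 genes varied by a coefficient of variation of 1.59% to 10.1%. Their reads in a library ran from 595 to 4991, and the standard errors of their log2 fold changes ran from 0.05 to 0.08.

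AMOTL2 (ENSG00000114019) encodes a scaffold of the angiomotin family that binds YAP and TAZ and links junctions to actin. Its values were 3141, 3252 and 3454 in siNT and 1973, 1833 and 1873 in siTAZ. Every siTAZ library was far below every siNT library. The mean fell from 3282 ± 158 to 1893 ± 72.2 (SD, n = 3 each), and the log2 fold change was -0.79 (SE 0.05, limma adjusted p = 1.5e-09). Its 95% interval, as a ratio of siTAZ to siNT, was 0.534 to 0.623. Of all genes tested, 6.83% had a more negative log2 fold change. AMOTL2 alone among the 9 moved by at least 1.5-fold, beside 27.4% of all genes tested and 13.4% of genes with a mean of at least 500.

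AMOT, the founding angiomotin, was far scarcer. Its values were 102, 137 and 146 in siNT and 144, 131 and 160 in siTAZ, which overlap. It did not pass the test (log2 fold change 0.19, 95% interval -0.10 to 0.49, limma adjusted p = 0.25). The log2 ratio of AMOTL2 to AMOT within a library was 4.69 ± 0.22 in siNT and 3.71 ± 0.14 in siTAZ (SD, n = 3 each). The groups did not overlap, and the two-sided exact permutation test gave 0.10, the smallest p that 3 against 3 allows (adjusted over 4 ratios 0.13). AMOT was put in this ratio, in place of AMOTL1, after the data were seen.

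LATS2 (ENSG00000150457), a LATS kinase, was the 1 gene called higher. Its values were 1913, 1935 and 2115 in siNT and 2281, 2195 and 2148 in siTAZ. The lowest siTAZ library lay just above the highest siNT library. The mean rose from 1988 ± 111 to 2208 ± 67.5 (SD, n = 3 each), a rise of 11.1%, and the log2 fold change was 0.15 (SE 0.05, limma adjusted p = 0.0235). The call is fragile: it was lost in 7 of 17 alternatives, among them leaving out siNT replicate 1 (limma adjusted p = 0.0756), siNT replicate 2 (0.0895), siTAZ replicate 1 (0.0512) and siTAZ replicate 2 (0.0601), and its adjusted p ran from 0.0031 to 0.0895 over the 17. LATS1 (ENSG00000131023), the other LATS kinase, stood at 1257, 1180 and 1236 in siNT and 1207, 1288 and 1325 in siTAZ. Its groups overlapped and it did not pass the test (log2 fold change 0.06, SE 0.06, limma adjusted p = 0.42). The 95% interval of its ratio, 0.956 to 1.13, leaves room for changes of about the size seen for LATS2.

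The log2 ratio of LATS2 to LATS1 was 0.70 ± 0.09 in siNT and 0.79 ± 0.11 in siTAZ (SD, n = 3 each). The values overlapped between groups, and a difference between the LATS genes in their response was not shown (0.10, two-sided exact permutation p = 0.50, adjusted over 4 ratios 0.50). Added per kb of exon, the LATS transcripts came to 509, 503 and 543 in siNT and 569, 564 and 560 in siTAZ, so that the pooled level was 8.93% higher in siTAZ and the groups did not overlap. LATS1 made up 30.4% ± 1.25 of this pool in siNT and 29.1% ± 1.60 in siTAZ (SD, n = 3 each).

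Since LATS2 and AMOTL2 are known TEAD target genes, the RefSeq promoter windows of the genes (GRCh38.p14, 250 bases before to 50 after each start) were searched for the TEAD core letters GGAATG on both strands. STK3 was left out of this search by a filter on its chromosome, which was not applied to the shares of all windows and genes. The letters were found in a window of 2 of the 8 genes searched that have values, and these were LATS2 and AMOTL2. Of all 35116 RefSeq windows of this length 14.0% hold them, and of the 27305 genes with a window 16.7% hold them in at least 1. The stretches of 30 bases around both matches are shown 5′ to 3′ on the gene's strand, with the matching letters in capitals.
AMOTL2, chr3:134374499-134374528, minus strand: ctgaaactctcaCATTCCtggcatagcagc
LATS2, chr13:21061560-21061589, minus strand: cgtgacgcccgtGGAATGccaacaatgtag
The AMOTL2 match lies 69 to 64 bases before the downstream of its 2 RefSeq starts. GENCODE places that stretch in a noncoding part of an AMOTL2 exon. The LATS2 match lies 10 to 15 bases after its RefSeq start and outside any GENCODE gene. A match of letters is a description and not a binding site. AMOTL2 was called lower and LATS2 higher, the latter by a fragile call. Any link of the letters to these changes was not tested. The letters TGANTCA, the AP-1 core, which read the same on both strands and do not overlap the TEAD letters, were found in a window of 2 of the 8 genes, LATS1 and MOB1B, beside 9.37% of genes with a window and 7.71% of all windows.

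**Figure D2:**
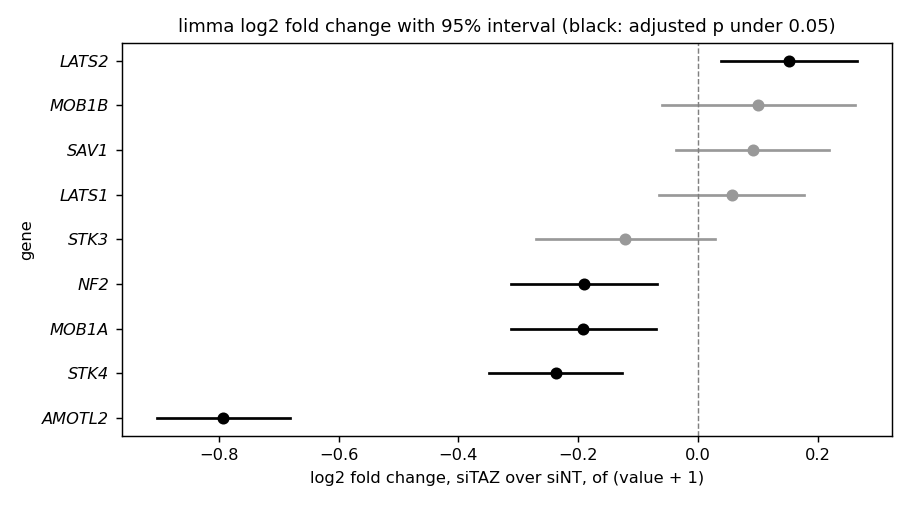
The limma log2 fold change of (value + 1), siTAZ over siNT, with its 95% interval for each of the 9 genes (horizontal axis, 0 marked by the dashed line). AMOTL2 at -0.79 stands far from the other 8, which lie between -0.24 and 0.15, and grey marks the 4 genes that did not pass.

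Upstream of LATS, STK4 (ENSG00000101109) was the more abundant MST kinase. Its values were 5226, 4603 and 5073 in siNT and 4063, 4308 and 4256 in siTAZ. All siTAZ libraries were below all siNT libraries. The mean fell from 4967 ± 325 to 4209 ± 129 (SD, n = 3 each), a fall of 15.3%, and the log2 fold change was -0.24 (SE 0.05, limma adjusted p = 0.0010). The call held in all 17 alternatives. STK3 (ENSG00000104375) stood at 842, 776 and 831 in siNT and 689, 747 and 820 in siTAZ. Its highest siTAZ library was within the siNT range, and it did not pass the test (log2 fold change -0.12, SE 0.07, limma adjusted p = 0.16).

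The log2 ratio of STK3 to STK4 was -2.60 ± 0.03 in siNT and -2.49 ± 0.10 in siTAZ (SD, n = 3 each). The groups did not overlap, but 3 libraries against 3 cannot go below p = 0.10, and that is the value the two-sided exact permutation test gave for the difference of 0.12 (adjusted over 4 ratios 0.13). Added per kb of exon, the MST transcripts came to 1064, 948 and 1037 in siNT and 838, 893 and 907 in siTAZ, 13.5% lower, with no overlap. SAV1 (ENSG00000151748), the MST scaffold, stood at 766, 759 and 719 in siNT and 811, 789 and 790 in siTAZ. All siTAZ libraries were above all siNT libraries, yet SAV1 did not pass the test (log2 fold change 0.09, SE 0.06, 95% interval of the ratio 0.975 to 1.16, limma adjusted p = 0.21). Of its exonic words of 50 bases, 4.51% occur in a transcript of another gene and 13.9% in one on the opposite strand, so part of its reads is uncertain.

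NF2 (ENSG00000186575), the merlin tumour suppressor, had values of 3133, 3186 and 3675 in siNT and 2948, 2860 and 2931 in siTAZ. The siTAZ libraries lay close together and below all siNT libraries, and siNT replicate 3 was higher than the other two. The mean fell from 3331 ± 299 to 2913 ± 46.7 (SD, n = 3 each), a fall of 12.6%, and the log2 fold change was -0.19 (SE 0.06, limma adjusted p = 0.0101). Without siNT replicate 3 the log2 fold change was -0.12 and the call was lost (limma adjusted p = 0.0967, range 0.0025 to 0.0967 over 17 alternatives).

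The MOB1 adaptors, which bind and activate LATS kinases, gave unlike values. MOB1A (ENSG00000114978) stood at 4420, 3869 and 4024 in siNT and 3369, 3638 and 3771 in siTAZ. Its groups did not overlap, and the mean fell from 4105 ± 284 to 3593 ± 205 (SD, n = 3 each), and the log2 fold change was -0.19 (SE 0.06, limma adjusted p = 0.0089). MOB1A no longer passed with total count scaling (limma adjusted p = 0.0571) and without an intensity trend (0.0827), with a range of 0.0057 to 0.0827 over 17 alternatives. MOB1B (ENSG00000173542) stood at 1040, 895 and 959 in siNT and 916, 1088 and 1105 in siTAZ. The groups overlapped through siTAZ replicate 1, and MOB1B did not pass the test (log2 fold change 0.10, SE 0.08, limma adjusted p = 0.27). Without that library it passed as higher (log2 fold change 0.19, limma adjusted p = 0.0195, range 0.0195 to 0.65 over 17 alternatives).

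The log2 ratio of MOB1A to MOB1B was 2.09, 2.11 and 2.07 in siNT and 1.88, 1.74 and 1.77 in siTAZ. It was lower in every siTAZ library, by 0.29 on average, which is larger than the SD of 0.02 in siNT and 0.07 in siTAZ. The two-sided exact permutation test gave the smallest p that 3 against 3 allows, 0.10 (adjusted over 4 ratios 0.13). Of the pooled MOB1 transcripts per kb of exon, MOB1A made up 86.0% ± 0.19 in siNT and 83.4% ± 0.68 in siTAZ (SD, n = 3 each). The pooled level overlapped between groups, at 1052, 919 and 959 in siNT and 819, 899 and 928 in siTAZ. No word of 50 bases is shared between MOB1A and MOB1B, between STK3 and STK4 or between LATS1 and LATS2 in GENCODE transcripts, so reads of that length that match exactly do not move between these paralogs.

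**Figure D3:**
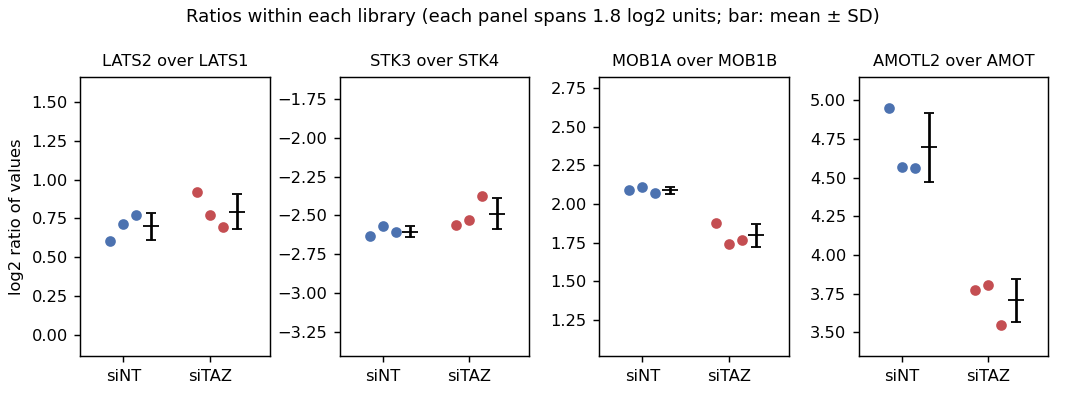
Log2 ratio of the deposited values of a pair of related genes within each library (vertical axis, the same span in each panel), with the group mean ± SD as a bar. MOB1A over MOB1B and AMOTL2 over AMOT are lower in every siTAZ library, STK3 over STK4 is higher by a small amount, and LATS2 over LATS1 overlaps between groups.

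Levels were compared between genes after division by the length of the gene's merged exons in kb. In siNT the order was MOB1A (840 ± 58.1 per kb), STK4 (772 ± 50.5), AMOTL2 (687 ± 33.1), NF2 (465 ± 41.6), LATS2 (361 ± 20.1), STK3 (245 ± 10.6), SAV1 (244 ± 8.33), LATS1 (158 ± 5.10) and MOB1B (136 ± 10.3), each with its SD and n = 3. Neighbours in this order whose libraries overlapped were MOB1A with STK4, STK4 with AMOTL2, and STK3 with SAV1. In siTAZ, AMOTL2 stood at 396 ± 15.1 per kb, below NF2 at 406 ± 6.51 and LATS2 at 401 ± 12.2 (SD, n = 3 each), and neighbouring genes among these 3 overlapped. The angiomotin-like transcript thus went from the level of the abundant STK4 to that of NF2 and LATS2. The scarcest genes in both groups were LATS1 and MOB1B. The lengths come from GENCODE release 29, which is not the annotation used for the counts, so the order between genes is approximate.

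**Figure D4:**
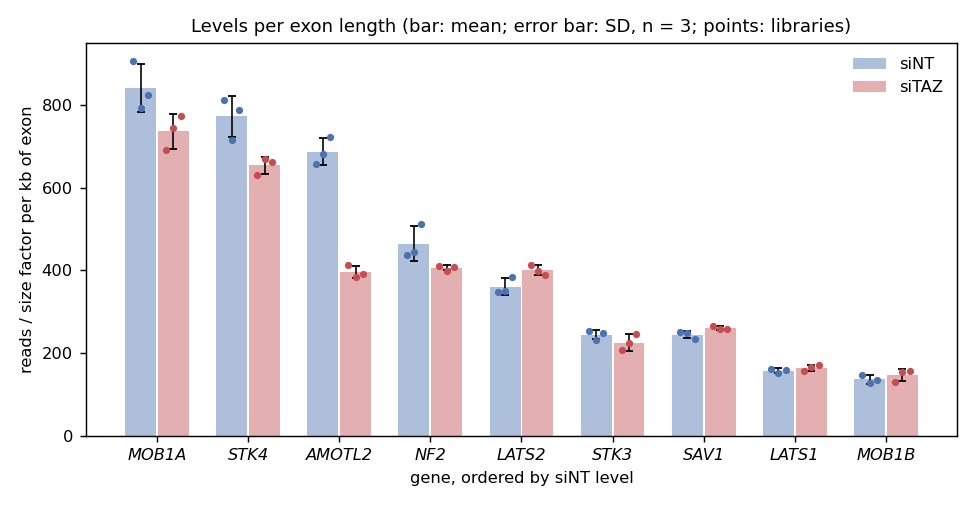
Deposited values per kb of exon (vertical axis from 0) for the 9 genes, ordered by their siNT level, with bars at the mean, error bars of 1 SD over 3 libraries and points for single libraries. AMOTL2 falls from 687 to 396 per kb, while the order of the other genes is nearly kept.

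Patterns were compared by the root mean square difference of log2 values, centred on the siNT mean, over the 6 libraries. Candidates were 10688 protein-coding genes with a mean of at least 100. Core genes and genes with placeholder names (LOC, LINC, Ensembl identifier or orf) were left out. The genes whose pattern was most like AMOTL2 were BHLHE40, GOLGA7B and ACTG1, with differences of 0.016, 0.019 and 0.026. BHLHE40, a basic helix-loop-helix repressor, went from 3226 ± 123 to 1852 ± 69.1 (SD, n = 3 each). For LATS2 the closest were IRF1 and GSTM3, with differences of 0.012 and 0.022. IRF1, an interferon regulatory factor, stood at 804 ± 49.1 in siNT and 890 ± 22.6 in siTAZ (SD, n = 3 each). With this many genes changed, close matches are easy to find.

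Other genes of the pathway were read from 7 lists, of which 87 genes were tested: 26 were called higher, 28 lower and 33 did not pass. That is 62.1% called, beside 55.8% of all genes and 67.5% of genes with a mean of at least 500. Most of the 87 reach that mean. The shares called in either direction, here and in each list below, are near the background and are no result about the lists. Of 15 regulators and adaptors of the MST kinases, 5 rose, 4 fell and 6 did not pass (60% called, median log2 fold change 0.02). RASSF4, a RAS-association protein, rose from 167 ± 15.3 to 340 ± 11.8, and FRMD6, a FERM protein placed upstream of the MST kinases, fell from 1493 ± 63.5 to 954 ± 29.1. TAOK1, a kinase that phosphorylates MST kinases, fell 1.45-fold, and the kinase MARK4 rose 1.41-fold. Of 7 MAP4K kinases, which can phosphorylate LATS in parallel to the MST kinases, 4 rose, 0 fell and 3 did not pass (median 0.16), and 0 were lower at an unadjusted limma p under 0.05 or by edgeR or DESeq2. That is 57.1% called, near the share of all genes. Of all genes, 28.3% were called higher and 27.5% lower, and the direction of this list of 7 was not tested as such. The 3 that did not pass had negative log2 fold changes, from -0.35 to -0.03. MINK1 rose from 4466 ± 89.6 to 8379 ± 440 (SD, n = 3 each; limma adjusted p = 1.0e-10), and MAP4K3 from 1575 ± 119 to 2973 ± 197 (limma adjusted p = 2.2e-09). Their log2 fold changes of 0.91 and 0.92 were larger in size than that of any of the 9 core genes.

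Of 9 NDR kinases, other MOB genes and relatives of MST3, 2 rose, 4 fell and 3 did not pass (66.7% called, median -0.11). Beside this and the lists that follow, 55.8% of all genes were called, and 67.5% of those with a mean of at least 500. The NDR kinases are close kin of LATS, and STK38 rose from 895 ± 27.1 to 1185 ± 57.0 while STK38L fell from 2899 ± 312 to 2296 ± 156. MOB3C rose 1.41-fold and MOB3B fell 1.32-fold. Of 14 genes of the STRIPAK complex, 3 rose, 7 fell and 4 did not pass (71.4% called, median -0.17). This phosphatase assembly removes activating phosphates from MST kinases. Its scaffold gene SLMAP fell from 3905 ± 147 to 2763 ± 57.1 and STRIP2 from 1155 ± 70.2 to 796 ± 54.4, whereas CTTNBP2NL rose 1.41-fold and PPP2R1A, the phosphatase scaffold, 1.16-fold.

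Of 8 LATS inhibitors and LIM proteins, 0 rose, 5 fell and 3 did not pass (median -0.27), and 0 were higher at an unadjusted limma p under 0.05 or by edgeR or DESeq2. That is 62.5% called, beside 55.8% of all genes and 67.5% of genes with a mean of at least 500. Of all genes, 28.3% were called higher and 27.5% lower, and the direction of this list of 8 was not tested as such. ZYX (zyxin), a LIM protein of focal adhesions, fell 1.77-fold, from 14030 ± 1225 to 7931 ± 796 (SD, n = 3 each; limma adjusted p = 2.3e-08), and its relative LPP fell 1.54-fold. Of 21 angiomotin partners, polarity and junction scaffolds, 8 rose, 3 fell and 10 did not pass (52.4% called, median 0.06). The polarity gene LLGL2 rose from 1193 ± 86.5 to 2457 ± 109, and PATJ, a Crumbs complex scaffold, from 378 ± 16.3 to 693 ± 19.6. PALS1, another Crumbs complex scaffold, fell 1.38-fold and the polarity gene PARD3 fell 1.25-fold. Of 13 genes for the degradation and cytoplasmic retention of YAP and TAZ, 4 rose, 5 fell and 4 did not pass (69.2% called, median 0.04). Within its family of phosphoprotein-binding adaptors YWHAG alone rose, 1.43-fold, from 14596 ± 180 to 20925 ± 154, whereas YWHAZ fell 1.44-fold and SFN (stratifin) fell 1.46-fold. YWHAB, YWHAH and YWHAQ of this family were also called lower (1.10-, 1.14- and 1.18-fold), and YWHAE did not pass. The ubiquitin ligase NEDD4 rose 1.45-fold.

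**Figure D5:**
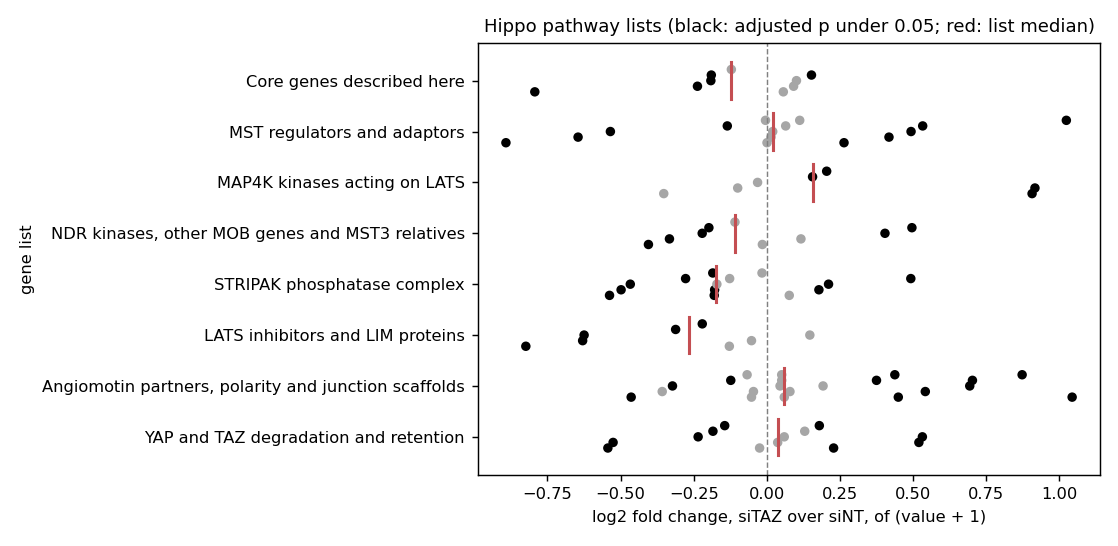
The limma log2 fold change of (value + 1), siTAZ over siNT, of each gene in the core set and in the 7 pathway lists (horizontal axis), with black points for genes past an adjusted p of 0.05 and a red line at each list's median. The list medians run from -0.27 to 0.16, and the core genes have AMOTL2 at -0.79 as their lowest point.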

How the data were processed

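The submitters' processing notes name HISAT2, HTSeq, DESeq2 and FastQC, with build hg19. Not given in the sources used here: versions, annotation, strand setting and gene filter. The deposited values are a signal: reads per gene divided by 1 size factor per library. This was found from the values, 100% of which were whole multiples of 1 read within 0.001 of a read, so whole counts could be recovered from the deposited table. Size factors ran from 0.828 to 1.17.

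Symbols came from an identifier table (16662 genes) and GENCODE release 29 (81), and 468 genes stayed unnamed. The main test was limma 3.58.1 in R 4.3.3 with an intensity trend on log2(value + 1), for genes with a mean of at least 1 and with group as the only term. P-values were Benjamini-Hochberg adjusted over all tested genes, with a threshold of 0.05. On the recovered reads, edgeR 4.0.16 called 9630 genes and DESeq2 1.42.0 called 8753, beside 9604 by limma. These tools were tested on simulated data. In that simulation far fewer genes changed than were called here, and its outcome is not reported here. Ratios used exact permutation tests in scipy 1.17.1. Alternatives varied the pseudocount, filter, scaling, tool, trend, replicate block and libraries.

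The members and lists were chosen with earlier results of these data known. Named genes are the members, WWTR1, YAP1, up to 2 called genes per list and direction with the smallest adjusted p, the 3 genes most like AMOTL2 and LATS2, and the top marker of each list. AMOT, YWHAB, YWHAE, YWHAH and YWHAQ, which are in the lists, are named outside this rule. Not every gene chosen this way is reported here. List members counted as called were read from the fit over all genes.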

Additional observations from a re-analysis of the deposited data

How the results depend on the processing

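Each of the 9 core genes kept the direction of its log2 fold change in all 17 alternatives, of which the edgeR fit with a replicate block was added after the data were seen. AMOTL2 ran from -0.82 to -0.74 and STK4 from -0.29 to -0.18, and both kept their calls in all 17. The number of core genes called was 5, and 2 without an intensity trend, where AMOTL2 and STK4 alone passed. Leaving out 1 library gave 4 to 5 of them. Calls of LATS2, NF2 and MOB1A were lost, and that of MOB1B gained, in the alternatives named with their values above, and the cause was not tested. LATS2 was also lost without an intensity trend (limma adjusted p = 0.0826) and with the replicate block (limma adjusted p = 0.0850, edgeR adjusted p = 0.0704), and NF2 without an intensity trend (limma adjusted p = 0.0839). No pairing by replicate number was seen: the deviations of same-numbered libraries from their group means correlated at -0.08, -0.02 and 0.01 across genes. Whether libraries shared a day or thaw cannot be told from this. With the replicate block, 8701 genes were called in place of 9604, and 4 core genes in place of 5. Total count scaling called 5561 genes higher and 4046 lower in place of 4874 and 4730, with a median log2 fold change of all genes of 0.05. Counts in the pathway lists stayed within 1.5 times under edgeR, the filter of 1 CPM in 3 libraries and the block. The core genes had 595 reads or more in each library. STK3, SAV1 and MOB1B, which had the fewest reads, had the largest standard errors (0.071, 0.061 and 0.076) and did not pass. The part of read depth in this was not tested, and a gene that did not pass is not shown to be unchanged. The intervals rest on limma's variance, which draws on a trend over all genes as well as on the 3 libraries of a group.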
